A study of Bos taurus with 28 samples.

Results

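The 16 transcripts described here were selected on their own measured levels, out of 28054 bovine transcripts quantified in embryos and conceptuses of days 7 to 19. Each had a median of at least 20 RPKM, a read count divided by transcript length and by library size, on day 16 and on day 19. Each of these medians was also at least 8 times the highest of the day 7, day 10 and day 13 medians. The selection named 4 further identifiers to be left out, and 0 of these 4 reached both limits. The difference between the late days and the earlier days therefore chose the transcripts and is given as a description, with no test. All 16 passed the filter of the tests between other days, at least 1 RPKM in at least 4 replicates, as did 19186 transcripts in all. The late medians that the selection asked for ensure this, so a member can be near 0 on the earlier days compared.

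In cattle, the blastocyst hatches from its zona pellucida, stays free in the uterus as a sphere and then an ovoid, and grows into a long filament before it attaches. Most of the filament is trophectoderm, the outer epithelium, which secretes interferon tau, the signal that keeps the corpus luteum alive in maternal recognition of pregnancy. As attachment begins, binucleate trophoblast cells appear in this layer and secrete pregnancy-associated glycoproteins and placental hormones, while the inner tissues form the yolk sac and the embryo proper. Which of these products, if any, the 16 transcripts encode is not known here. The files give Ensembl transcript identifiers without gene names, and 0 of the 28054 identifiers could be matched to the RefSeq gene table used here. For the same reason the labelled tissue could not be checked against marker genes, and the transcripts are called by their identifiers.

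The series holds 28 mRNA sequencing libraries of conceptuses flushed from the uterus of crossbred beef heifers, predominantly of Charolais and Limousin cross and about 18 months old. The heifers were inseminated with semen of 1 bull and assigned at random to a day of recovery. The groups were day 7 (blastocyst), day 10 (hatched, spherical), day 13 (ovoid, at the start of elongation), day 16 (a filament, when maternal recognition of pregnancy occurs) and day 19 (also a filament, as implantation starts). The labels give 6 libraries for day 7, 7 for day 10 and 5 for each of the other days. Day 7 and day 10 embryos came from superovulated heifers and were pooled for extraction. The protocols describe single conceptuses of heifers without superovulation for days 13, 16 and 19, whereas the sample labels mark day 13 as pooled and superovulated as well. Polyadenylated RNA was isolated directly on days 7, 10 and 13 and from total RNA on days 16 and 19. The way RNA was prepared and the stage therefore cannot be told apart between days 7, 10 and 13 and the filament days. Between days 7 and 10 and the filament days, superovulation, pooling, RNA preparation and the stage cannot be told apart. If the day 13 labels are right, the same holds for day 13. In whole conceptuses, fewer cells of a type and less RNA per cell cannot be told apart either.

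The selection used 24 replicates. The files of 3 libraries carry the title of a sample of another day, and these were left out of it: the library labelled day 7 replicate 6 has a day 16 title, day 16 replicate 5 a day 19 title and day 19 replicate 5 a day 7 title. Day 16 replicates 2 and 3 were averaged and counted as 1, since they differed by close to the sampling noise, with a mean chi-square per transcript of 1.19 against 5.33 to 17.4 for the other pairs of day 16 libraries. The replicates used held 473552 to 10871501 reads, recovered from the RPKM steps. With 3 reads as the limit that a count of 0 allows, a member of the median length of 1146 nt could reach 5.53 RPKM unseen in the shallowest library, day 7 replicate 5, and 0.241 RPKM in the deepest. All intervals and limits of this kind cover counting error only. The heifers behind the replicates are not named in the labels, so p-values measure only the spread between these samples.

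The name under which the set was proposed, transcripts switched on only in filaments, did not hold for the single libraries. All 16 had reads before day 16, in 8 to 17 of the 17 early replicates. All 16 had a read in at least 4 of the 7 day 10 replicates, and 13 in at least 3 of the 5 day 7 replicates. An early replicate reached 20 RPKM for 13 of the 16. In 4 of the 16, every day 16 and day 19 replicate lay above every earlier one, a pattern met by 0.876% of all transcripts tested, and by 4 members and 1.03% of all without day 13 replicate 5. These were ENSBTAT00000008011, ENSBTAT00000054856, ENSBTAT00000002279 and ENSBTAT00000008877. The selection used this contrast, so nothing is read from the count. They are therefore described as transcripts with medians at least 8-fold higher in filaments.

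**Figure D1:**
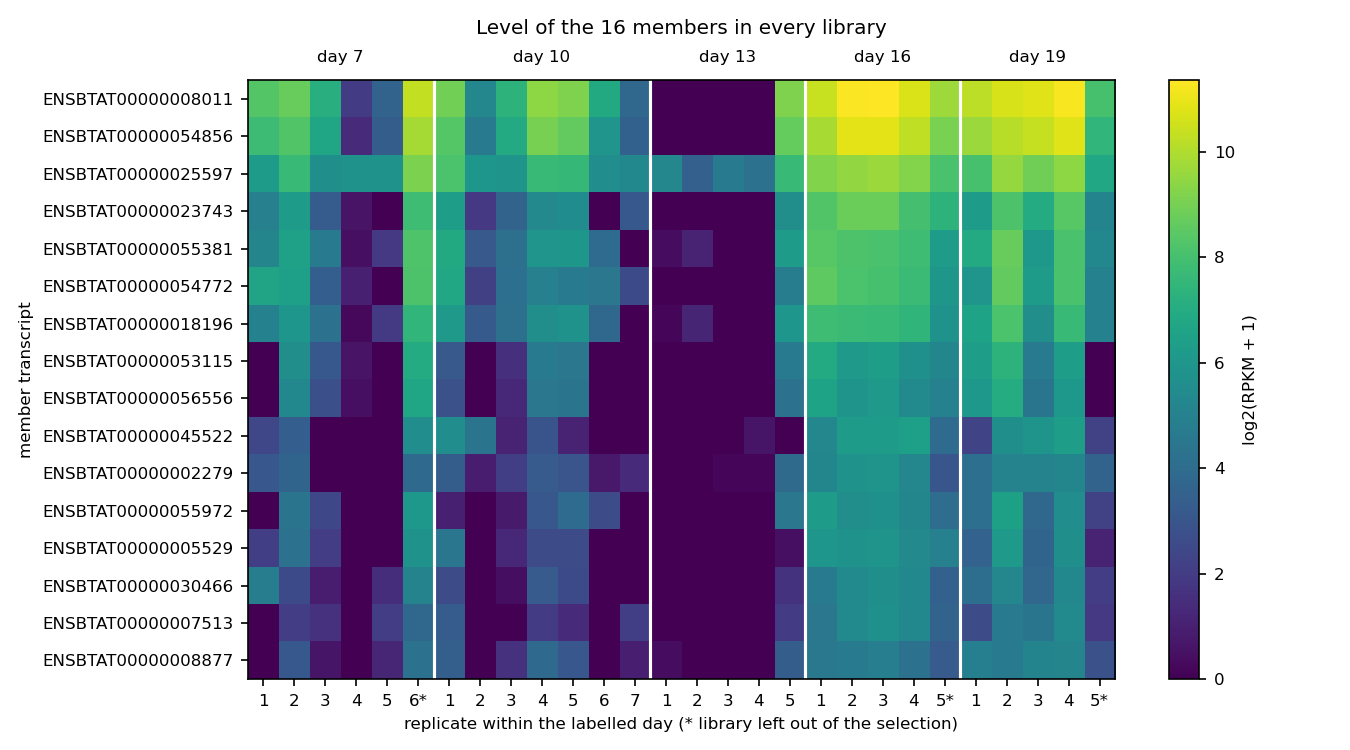
Level of the 16 transcripts (rows, by falling late-day median) in each of the 28 libraries (columns, grouped by labelled day; an asterisk marks the 3 libraries left out of the selection), as colour on the log2(RPKM + 1) scale. All rows share 1 colour scale, so rows of lower level are darker throughout. Within a row, most day 16 and day 19 replicates used are brighter than most early ones, with early replicates overlapping them in 12 of the 16 rows. Day 13 replicates 1 to 4 are at or near 0 in all rows but ENSBTAT00000025597. Day 7 replicates 4 and 5 and day 10 replicates 2, 6 and 7 are at 0 or low in most rows. The other day 7 and day 10 replicates and day 13 replicate 5 lie between in most rows.

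The most abundant member was ENSBTAT00000008011, a transcript of 1143 nt. On day 7 its level was 320.4, 422, 140.3, 2.92 and 11.1 RPKM in replicates 1 to 5, and on day 10 the lowest replicate had 12.8, the median 161 and the highest 686. On day 13 it was at 0 in replicates 1 to 4 and at 566 RPKM in replicate 5. Day 16 replicates had 1329.7, 2570.1 (replicates 2 and 3 averaged) and 1695 RPKM, and day 19 replicates 1179, 1596, 1793 and 2449.9. The late replicates thus lay above all early ones, but the lowest late value was less far from the highest early value than the medians were, with a ratio of medians of 10.6. Taken as a ratio, the highest over the lowest replicate of day 7, and likewise of day 10, exceeded this ratio of medians.

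ENSBTAT00000054856, 1134 nt long, followed the same order of libraries at a lower level. Its day 7 replicates had 216, 309, 105, 1.60 and 9.31 RPKM, and day 10 ranged from 10.3 over a median of 121 to 522 RPKM. Day 13 gave 0 in replicates 1 to 4 and 411 RPKM in replicate 5. The late replicates had 938, 1896 and 1232 RPKM on day 16 and 806, 1136, 1310.4 and 1760.1 on day 19. Here too, no late replicate overlapped an early one.

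The next in abundance, ENSBTAT00000025597 (1369 nt), was the member with the most even early level, and it had reads in all 17 early replicates. Its level was 76.0, 199, 49.4, 55.1 and 54.0 RPKM on day 7, and 38.6 to 279 RPKM with a median of 61.6 on day 10. On day 13 it had 36.6, 10.3, 24.9 and 18.1 RPKM in replicates 1 to 4 and 204 RPKM in replicate 5. Day 16 gave 596, 769.8 and 614 RPKM, and day 19 gave 268, 746, 474 and 676. Day 10 replicate 1, at 279 RPKM, lay just above day 19 replicate 1, at 268 RPKM, so early and late values overlapped.

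ENSBTAT00000023743 (1147 nt) had the highest ratio of medians among the more abundant members, 18.6. Day 7 replicates had 30.2, 77.4, 8.89, 0.528 and 0 RPKM, and day 10 ranged from 0 over a median of 11.2 to 79.8. Only replicate 5 had reads on day 13, at 48.1 RPKM. Day 16 gave 308, 444 and 257 RPKM, and day 19 gave 76.5, 289, 127 and 341. Day 10 replicate 1 and day 7 replicate 2 both exceeded day 19 replicate 1.

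Close to the fold limit, ENSBTAT00000055381 (1570 nt) and ENSBTAT00000018196 (1507 nt) had a few reads in day 13 replicates 1 and 2 and none in replicates 3 and 4. The first had 35.3, 88.8, 23.6, 0.386 and 2.69 RPKM on day 7, 0 to 117 with a median of 17.3 on day 10, and 0.294, 1.18, 0, 0 and 77.5 on day 13. Its late replicates had 340.1, 281 and 227 RPKM on day 16 and 122, 419, 64.9 and 272 on day 19, so that day 19 replicate 3 lay under the highest day 7, day 10 and day 13 replicates. ENSBTAT00000018196 had medians of 18.4, 17.1, 0.102, 209 and 151 RPKM on days 7, 10, 13, 16 and 19. ENSBTAT00000054772 (891 nt), with a ratio of 8.09 the member nearest to the fold limit, had 96.5, 83.6, 9.36, 1.02 and 0 RPKM on day 7, 3.50 to 112 with a median of 21.6 on day 10, and 0 in 4 of 5 day 13 replicates with 26.4 in replicate 5. It had 371, 272 and 214 RPKM on day 16 and 58.6, 391, 75.8 and 274 on day 19. In day 19 replicates 1 and 3 this transcript was therefore below the levels of day 7 replicate 1 and day 10 replicate 1.

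The highest ratios came from members whose early medians were near 0. ENSBTAT00000045522, at 323 nt the shortest member, had a ratio of 45.2, ENSBTAT00000056556 (802 nt) of 44.0, ENSBTAT00000053115 (606 nt) of 39.4 and ENSBTAT00000055972 (1014 nt) of 32.2. These ratios rest on day 10 medians of 1.19, 1.41, 1.87 and 0.97 RPKM, levels below what 3 reads give in the shallower day 10 libraries. Single early replicates of the same transcripts were far higher. ENSBTAT00000045522 reached 45.7 RPKM in day 10 replicate 1, and ENSBTAT00000053115 reached 48.5 RPKM in day 7 replicate 2.

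By sample, ENSBTAT00000053115 had 0, 48.5, 7.65, 0.500 and 0 RPKM on day 7, 0 to 25.2 with a median of 1.87 on day 10, and 0 in day 13 replicates 1 to 4 with 24.1 in replicate 5. Late values were 123, 73.7 and 51.6 RPKM on day 16 and 77.8, 161, 24.3 and 81.0 on day 19. ENSBTAT00000045522 differed from the others in its order of libraries. It had 4.29, 9.47, 0, 0 and 0 RPKM on day 7 and 0 to 45.7 on day 10. On day 13 it was at 0 in replicate 5 and at 0.577, from 1 read, in replicate 4. Day 16 gave 37.0, 75.1 and 82.9 RPKM, and day 19 gave 4.05, 49.9, 57.8 and 81.8. This made it the 1 member without a read in day 13 replicate 5.

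In the remaining 5 members the lower of the late medians was 22.6 to 32.8 RPKM. ENSBTAT00000002279 (1831 nt) had 7.58, 11.6, 0, 0 and 0 RPKM on day 7, 0.702 to 9.14 with a median of 3.30 on day 10, and 0, 0, 0.118, 0.102 and 14.2 on day 13. Its late values were 36.5, 56.2 and 37.4 RPKM on day 16 and 16.45, 32.9, 32.7 and 35.9 on day 19, all above the early ones. ENSBTAT00000008877 (1611 nt) had 0, 7.81, 0.575, 0 and 1.31 RPKM on day 7, 0 to 13.9 with a median of 2.11 on day 10, and 0.287, 0, 0, 0 and 9.06 on day 13. On day 16 it had 22.6, 26.3 and 18.5 RPKM and on day 19 28.9, 23.5, 33.5 and 34.8, without overlap with the early days. It was 1 of 3 members whose day 19 median was above the day 16 median, while the day 16 median was the higher in the other 13.

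ENSBTAT00000005529, at 2063 nt the longest member, had day medians of 3.14, 1.47, 0, 56.2 and 30.3 RPKM. ENSBTAT00000030466 (1146 nt) had 1.84, 0.330, 0, 38.9 and 26.7, ENSBTAT00000007513 2.07, 1.58, 0, 38.9 and 22.9, and ENSBTAT00000055972 0, 0.97, 0, 49.4 and 31.2. Over the 16, the ratio of the lower late median to the highest early median had a median of 10.6, and 10 of 16 were under 12. The highest early median fell on day 10 for 11 members and on day 7 for 5. The day 13 median was the lowest of the 5 days for 13 of the 16. In ENSBTAT00000045522 and ENSBTAT00000055972 the day 7 and day 13 medians were both 0, and in ENSBTAT00000002279 the day 7 median of 0 was the lowest.

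**Figure D2:**
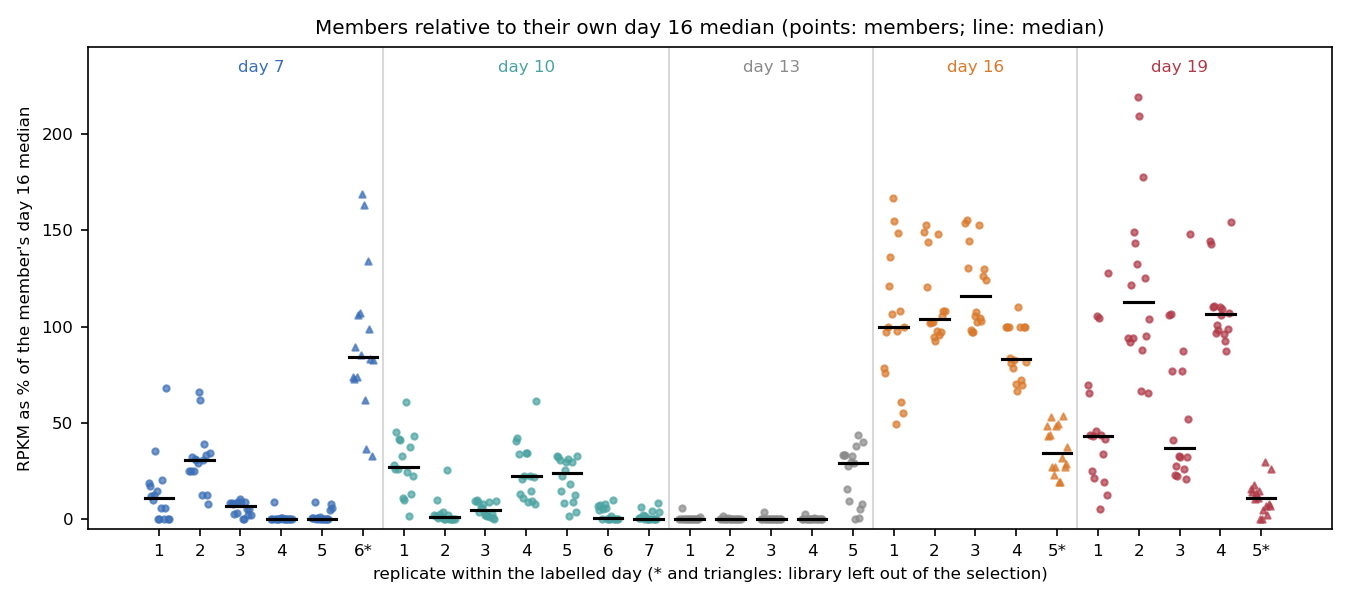
RPKM of each of the 16 transcripts (points) as a percentage of its own day 16 median, in each library by labelled day; lines mark the median over the 16, and triangles and asterisks mark libraries left out of the selection. The median line stands at 27.3% in day 10 replicate 1 and 30.9% in day 7 replicate 2, at 0% in day 13 replicates 1 to 4 and at 29.5% in day 13 replicate 5.

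Libraries of the same early day differed widely in the level of the set, taken for each member as a percentage of its own day 16 median. The median over the 16 was 11.1%, 30.9%, 6.82%, 0.113% and 0.327% in day 7 replicates 1 to 5. On day 10 it was 27.3%, 22.3% and 24.1% in replicates 1, 4 and 5, and 0.379% to 4.86% in replicates 2, 3, 6 and 7. Day 7 replicate 2 was the highest day 7 replicate for 14 of the 16, against 19.22% of all transcripts with a read on that day. Day 10 replicate 1 was the highest for 9 members, against 21.7% of all transcripts. Replicate 4 was so for 6, against 7.45%, and replicate 5 for 1, against 8.03%. All reads of the 16 together made up 0.00836% to 0.167% of a day 7 library, 0.0101% to 0.200% on day 10, and 0.335% to 0.830% on days 16 and 19. The replicates with low values included the deep day 7 replicate 4, with 3300915 reads, as well as shallow ones such as day 7 replicate 5 and day 10 replicate 7, with 473552 and 681611. In these shallow replicates a single transcript outside the set, ENSBTAT00000042502, held 34.3% and 38.4% of the reads, against 2.99% in day 7 replicate 4. Such a share lowers the RPKM of all other transcripts, and its part in the low values of the set was not tested. Day 10 replicates 2 and 6 had 2.50% and 5.11% of reads in that transcript. Their medians were 1.09% and 0.939% of the day 16 level.

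The comparison of day 13 with day 10 covers the onset of elongation. Both days entered the selection, which held both medians low against the late days, but the difference between them did not. The values compared thus helped to choose the set, and members can pass the filter through their late days alone. The differences and p-values are therefore given as a description, here and for day 10 against day 7. All 16 members had a lower mean log2(RPKM + 1) on day 13. The median log2 difference of the members was -1.50, from -5.42 to -0.73, against 0.07 over all transcripts tested. The pseudocount holds down differences of low transcripts: the median was -2.96 with a pseudocount of 0.1 and -4.19 with voom on recovered reads. The test called 0 of the 16 at an adjusted p under 0.05 and a log2 difference of at least 1 (limma, Benjamini-Hochberg over 19186 transcripts), against 1.19% of all transcripts called in either direction and 0.532% called lower. At an unadjusted p under 0.05, 8 of the 16 and 2449 of all transcripts were past the limit. Nearest to a call were ENSBTAT00000008011, with a log2 difference of -5.42 ± 1.38 (SE, n = 5 and 7) and a limma adjusted p of 0.0529, and ENSBTAT00000054856, with -4.98 ± 1.34 and 0.0706. ENSBTAT00000054772 followed with -3.30 ± 1.01 and an adjusted p of 0.126.

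Day 13 replicate 5 stood apart from its group for these transcripts. It lay above the 4 other day 13 replicates for 15 of the 16, where 27.3% of all transcripts did so. It had a median of 29.5% of the day 16 level, close to that of the high day 7 and day 10 replicates, and its 1232705 reads were the fewest of the day. Replicates 1 to 4 gave 22442167 reads together. In these, 10 of the 16 had no read at all, against 6.41% of all transcripts tested, and the limit of 3 reads in this pool is 0.0648 to 0.221 RPKM for the 10. The selection asked for a low day 13 median, which these replicates largely set, so nothing is read from this count. Of the other 6 members, ENSBTAT00000025597 had 701 reads, ENSBTAT00000055381 had 14, ENSBTAT00000018196 had 12 and the others 1 to 3. In replicate 5 alone, ENSBTAT00000008011 had 798 reads, ENSBTAT00000054856 had 574 and ENSBTAT00000025597 had 345.

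Without replicate 5, the test called 6 of the 16 lower on day 13 than on day 10. Of all 19030 transcripts it called 186 lower and 350 in either direction. ENSBTAT00000008011 then had a log2 difference of -7.25 ± 1.02 and a limma adjusted p of 0.000105. ENSBTAT00000054856 had -6.72 ± 1.02 and an adjusted p of 0.000269. The other called members were ENSBTAT00000054772 at -4.25, ENSBTAT00000055381 at -3.93, ENSBTAT00000018196 at -3.77 and ENSBTAT00000025597 at -2.17, with adjusted p from 0.0172 to 0.0396. Over all alternatives tried, the adjusted p of ENSBTAT00000008011 ranged from 1.46e-05 to 0.194. Leaving out this replicate was an alternative, and the reason it stands apart was not tested. The selection asked for a low day 13 median, which replicates 1 to 4 largely set. The calls without replicate 5 therefore lean this way in advance, and nothing is read from them. By protocol, pooling and superovulation ended between day 10 and day 13, so these and the stage cannot be told apart.

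**Figure D3:**
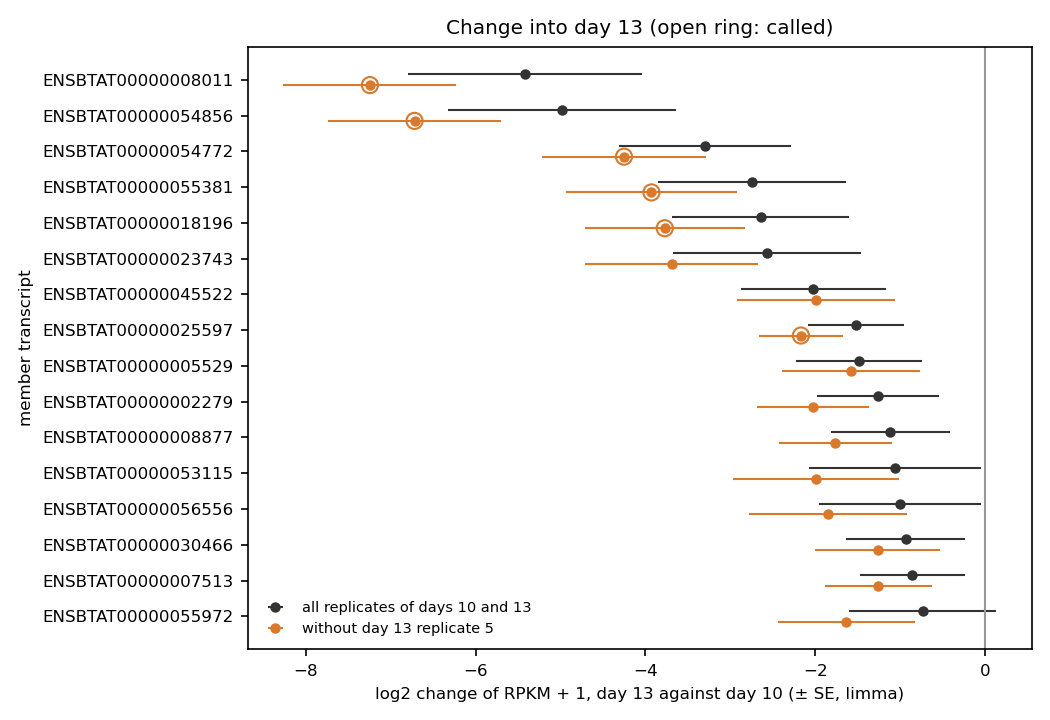
Log2 difference of RPKM + 1 from day 10 to day 13 (x axis, with SE from limma) for each of the 16 transcripts, with all replicates (dark) and without day 13 replicate 5 (orange); open rings mark calls. All points lie below 0, with 0 calls in the first fit and 6 in the second.

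For day 10 against day 7, hatched sphere against blastocyst, the test called 0 of the 16, against 0.00521% of all transcripts, which is 1 of 19186. At an unadjusted p under 0.05 there were 0 of the 16 and 1828 of all transcripts. Positive differences are higher on day 10. The median log2 difference was 0.59 against -0.04 over all transcripts, positive for 14 members and negative for 2. It ranged from -0.01, without day 7 replicate 4 and with 8 of the 16 positive, to 1.25, without day 7 replicate 2, when 1 replicate was left out. ENSBTAT00000008011 had the highest, 1.29 ± 1.38 (SE, n = 7 and 5; limma adjusted p = 0.805). ENSBTAT00000030466 had the lowest, -0.68 ± 0.70 (adjusted p = 0.796). With standard errors of this size, differences of about this magnitude were within the spread between replicates.

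Between the 2 filament stages, day 19 against day 16, no member was called, against 0.235% of all transcripts, which is 45 of 19186. The selection asked for high medians on both days, which leaves out transcripts high on day 16 but not on day 19, or the reverse. Nothing is therefore read from this count. At an unadjusted p under 0.05 there were 0 of the 16 and 1295 of all transcripts. The members' log2 differences were negative for 15 of 16, with a median of -0.61 against -0.17 over all transcripts. The median was -0.30 without day 19 replicate 1, with 12 of 16 negative, and -0.29 without day 19 replicate 3, with 13 negative. They reached from -0.94 ± 0.97 for ENSBTAT00000005529 over -0.91 ± 1.32 for ENSBTAT00000054772 and -0.90 ± 1.11 for ENSBTAT00000045522 to the single positive value, 0.41 ± 0.91 for ENSBTAT00000008877 (SE, n = 4 and 3; limma adjusted p = 1 for each). Centring each library on its median moved the median over all transcripts to 0.17 and that of the members to -0.27, with 5 of 16 positive.

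The day 19 replicates were spread more widely than those of day 16. The highest over the lowest replicate was 1.48-fold to 20.2-fold on day 19, with a median of 6.12 over the 16, whereas 4209 transcripts at 20 RPKM or more on both late days had a median of 1.65. On day 16 it was 1.29-fold to 2.38-fold, with a median of 1.82 against 1.44. The day 19 spread had 4 replicates and the day 16 spread 3, of which 1 is an average, so these values were not tested against each other. Replicate 2 was the highest day 19 replicate for 8 members and replicate 4 for the other 8. Replicate 1 was the lowest for 9, replicate 3 for 6 and replicate 2 for ENSBTAT00000008877. The share of all transcripts lowest in each replicate was not taken, so nothing is read from these counts of the lowest. In median percent of the day 16 level, the 4 replicates stood at 43.4%, 113%, 37.2% and 106%.

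The 16 were not alike in this. ENSBTAT00000045522 had the widest day 19 range, with replicate 1 at 4.05 RPKM and replicate 4 at 81.8. ENSBTAT00000008877 had the narrowest, 1.48-fold, followed by ENSBTAT00000008011 at 2.08-fold, and ENSBTAT00000002279 and ENSBTAT00000054856 at 2.18-fold each. Those 4 are the ones without overlap between late and early replicates. A narrow day 19 range keeps the lowest value closer to the median, so this match is not a separate result. Day 19 replicate 3 was low for ENSBTAT00000055381, ENSBTAT00000018196, ENSBTAT00000053115 and ENSBTAT00000056556, with 64.9, 47.5, 24.3 and 20.1 RPKM, but not for ENSBTAT00000008011, with 1793, or ENSBTAT00000045522, with 57.8. All 4 day 19 libraries were deep, with 5344893 to 10871501 reads.

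**Figure D4:**
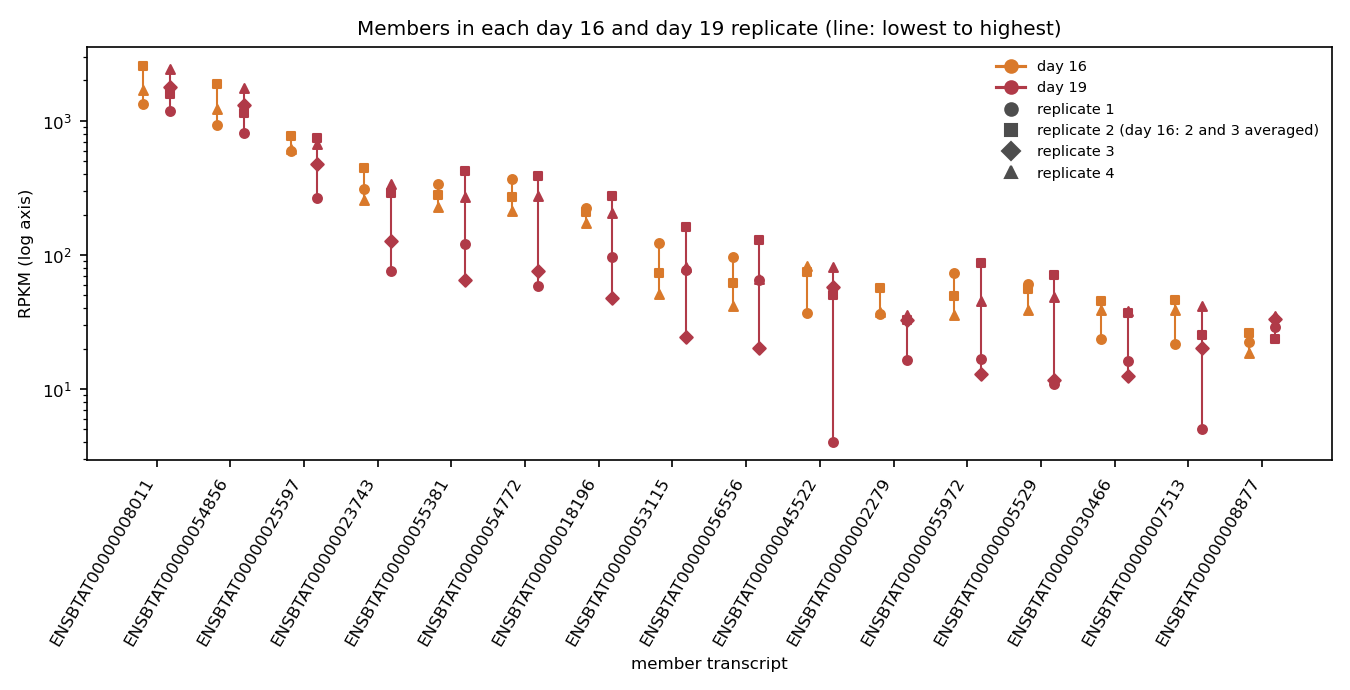
RPKM (log axis) of the 16 transcripts in the day 16 (orange) and day 19 (red) replicates, with symbols for replicate number and lines from the lowest to the highest. Day 19 lines are the longer for most transcripts, up to 20.2-fold for ENSBTAT00000045522, with replicates 2 and 4 at the top.

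The 3 libraries left out give the same measure in samples that the selection did not use. The replicates set beside them were used, with high medians asked for on days 16 and 19 and low ones on day 7. The counts below lean this way in advance, and nothing is read from them. The library labelled day 7 replicate 6 had reads of all 16 and lay above all 5 other day 7 replicates for 16 of 16, where 18.3% of all transcripts did so. Its median was 84.2% of the day 16 level, with 1249 RPKM of ENSBTAT00000008011 and 549 RPKM of ENSBTAT00000025597. Single members stood at 32.8% to 169% in it. The day 16 libraries used had medians of 83.1% to 116%, and the day 19 replicates used 37.2% to 113%. The file of this library carries a day 16 title. The library labelled day 16 replicate 5 lay below the other day 16 replicates for 16 of 16, against 42.8% of all transcripts, at a median of 34.6% (day 19 replicates 1 to 4: 37.2% to 113%), with 819 RPKM of ENSBTAT00000008011. Its file carries a day 19 title, and it held 10213132 reads. The library labelled day 19 replicate 5 was below the 4 other day 19 replicates for 16 of 16, against 25.4%, at a median of 11.1%, with 266 RPKM of ENSBTAT00000008011 and 2 members at 0. Its file carries a day 7 title, and day 7 replicates 1 to 5 stood at 0.113% to 30.9%. Each is 1 library, so no test was made, and which day each library is was not tested.

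The ratio between members of some pairs varied little between libraries. Over the 120 pairs of members, using libraries with at least 20 reads of both, the SD of the log2 ratio of their RPKM had a median of 0.78 and ranged from 0.05 to 1.39. The 3 pairs with the smallest SD were chosen after their values were seen. ENSBTAT00000053115 over ENSBTAT00000056556 had a median ratio of 1.21, from 1.13 to 1.28 in 13 libraries, none of them of day 13. ENSBTAT00000008011 over ENSBTAT00000054856 had 1.39, from 1.31 to 1.98 in 20 libraries, with the 1.98 in day 10 replicate 6 from 104 and 52 reads. ENSBTAT00000055381 over ENSBTAT00000018196 had 1.33, from 1.02 to 1.70 in 19 libraries. For both of these pairs, day 13 is represented by replicate 5 alone. Transcripts of 1 gene, or of genes with near-identical copies, share reads, and how the authors counted such reads is not given in the sources used here, so these pairs may not be separate measurements.

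**Figure D5:**
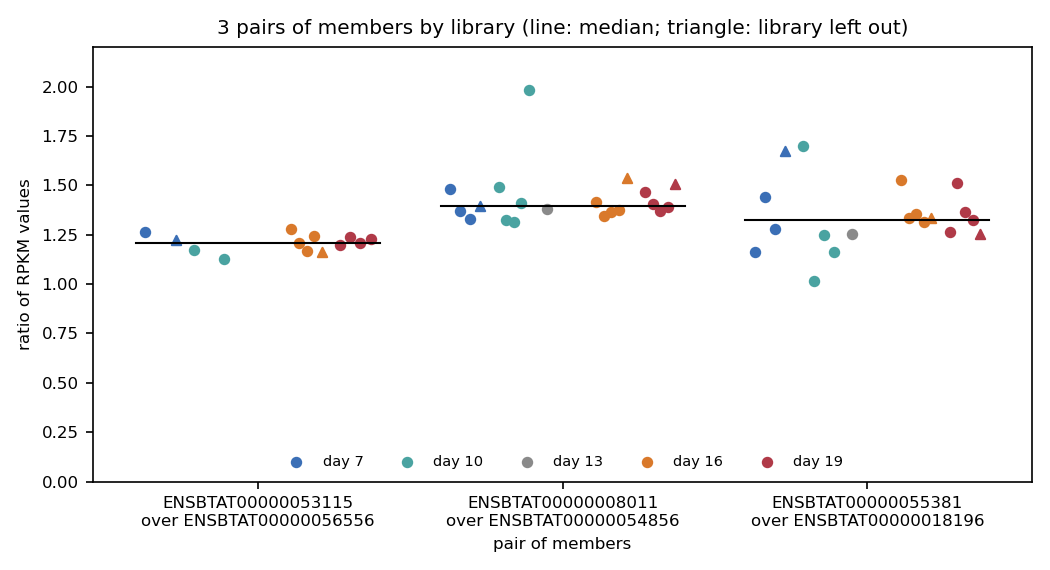
Ratio of the RPKM values of the 2 transcripts of each of 3 pairs (y axis), one point for each library with at least 20 reads of both, coloured by labelled day; triangles are libraries left out of the selection and lines the medians. The medians are 1.21, 1.39 and 1.33, and points of different days overlap.

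As a group the 16 were short, with a median length of 1146 nt against 1676 nt over all transcripts tested, from 323 to 2063 nt. RPKM divides by length, so reads per member are fewer for the short ones at the same RPKM. The limits of the selection cut through a continuum. Just inside the level limit stood ENSBTAT00000008877 and ENSBTAT00000007513, whose lower late medians were 22.6 and 22.9 RPKM, and just outside it ENSBTAT00000001076, at 19.3 RPKM with a ratio of 8.32, and ENSBTAT00000048190, at 12.4 RPKM with early medians of 0. Just inside the fold limit stood ENSBTAT00000054772 and ENSBTAT00000018196, with ratios of 8.09 and 8.17, and just outside it ENSBTAT00000015939, at 121 RPKM and 7.50, and ENSBTAT00000005384, at 23.0 RPKM and 7.42. The same rule kept 27 transcripts when day 19 replicate 1 was left out and 25 when day 19 replicate 3 was. It kept 9 on leaving out either day 10 replicate 2 or day 19 replicate 4, and 8 on leaving out either replicate 3 or replicate 7 of day 10.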

How the data were processed

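Messenger RNA of bovine conceptuses was sequenced in 28 libraries. The authors deposited RPKM per Ensembl transcript, 1 file for each library. The submitters' processing notes name CASAVA, with the aligner, genome build, annotation and treatment of reads shared by transcripts not given in the sources used here. RPKM values were whole multiples of a step for 100.0% of values (tolerance 1e-06 of a read), which gave reads, total reads and lengths, with at least 99.977% of each total recovered.

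Groups follow the labelled day. The tests used limma 3.58.1 in R 4.3.3 (trend and robust) on log2(RPKM + 1), in 1 model of 5 days and 24 replicates, after a filter (4 or more replicates at 1 RPKM or above), with Benjamini-Hochberg adjustment. A call needed an adjusted p under 0.05 and an absolute log2 difference of at least 1. Fold changes on this scale understate changes of low transcripts. The fitting script was tested on simulated data. The members, lists and tests were chosen with earlier results of these data known. All 16 members are named, by level, ratio, difference, position at the limits and length. Alternatives were other pseudocounts, filters, centring, voom on recovered reads, selection limits, libraries and equal depth of 300000 reads. The last, and leaving out 3 libraries that stand apart (day 7 replicate 5, day 10 replicate 7 and day 13 replicate 5), were chosen after seeing the data.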

Additional observations from a re-analysis of the deposited data

Results flagged for a closer look

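Each day with 4 to 7 replicates was searched for a replicate whose gap to the nearest other exceeded the limit of Dixon's test. A distant replicate was found in 28 of 64 groups. In 11 of these 28 the other replicates were all at 0, so that any read would have been picked out. Chance gives about 1 group in 20 for independent normal values, which these are not.

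Day 13 replicate 5 was the distant one for 15 members. Its values were 566 RPKM for ENSBTAT00000008011, 411 for ENSBTAT00000054856, 204 for ENSBTAT00000025597, 77.5 for ENSBTAT00000055381, 61.9 for ENSBTAT00000018196 and 48.1 for ENSBTAT00000023743. The lower ones were 26.4 for ENSBTAT00000054772, 24.1 for ENSBTAT00000053115, 21.6 for ENSBTAT00000055972, 18.2 for ENSBTAT00000056556 and 14.2 for ENSBTAT00000002279. The lowest were 9.06 for ENSBTAT00000008877, 3.03 for ENSBTAT00000007513, 2.12 for ENSBTAT00000030466 and 0.393 for ENSBTAT00000005529, the last from 1 read. For ENSBTAT00000045522 the distant day 13 library was replicate 4, with 0.577 RPKM from 1 read.

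Day 7 replicate 2 was far above the other day 7 replicates for 6 members, with 199 RPKM of ENSBTAT00000025597, 48.5 of ENSBTAT00000053115, 38.4 of ENSBTAT00000056556, 19.4 of ENSBTAT00000055972, 18.7 of ENSBTAT00000005529 and 7.81 of ENSBTAT00000008877. Day 7 replicate 1 was so for ENSBTAT00000030466, with 26.6 RPKM. Day 10 replicate 1 was distant for ENSBTAT00000054772 (112 RPKM), ENSBTAT00000045522 (45.7 RPKM), ENSBTAT00000005529 (21.0 RPKM) and ENSBTAT00000007513 (8.81 RPKM). Day 19 replicate 1 was low for ENSBTAT00000002279, with 16.45 RPKM.

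Outside the replicates used, the library labelled day 7 replicate 6 was above the 5 other day 7 replicates for 16 of 16 members, against 18.3% of all transcripts. The selection asked for a low median in those 5, so nothing is read from this count.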

How the results depend on the processing

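The number of transcripts the rule keeps, 16, was 82 at 4-fold, 5 at 16-fold, 10 at 40 RPKM, 3 with means for medians, 5 with all 28 libraries as labelled and 8 without the 3 libraries that stand apart. It ranged from 8 to 27 when 1 replicate was left out. The number of members called between day 13 and day 10, 0, was 1 with a pseudocount of 0.5, 2 with one of 0.1, 1 with a filter of 5 RPKM, 1 with median centring, 7 with voom on recovered reads, 1 with day 16 replicates 2 and 3 as 2 samples and 7 without the 3 libraries that stand apart. It ranged from 0 to 6 when 1 replicate was left out, with the 6 without day 13 replicate 5, and the cause of these shifts was not tested. Over all transcripts, voom called 558 there against 229, and 1149 between day 19 and day 16 against 45. All called members were lower on day 13, and the sign of the difference was negative for 16 of 16 under each alternative. Between day 19 and day 16 and between day 10 and day 7, 0 members were called under each alternative tried. The log2 change of ENSBTAT00000045522, day 19 against day 16, ranged from -1.34 to 0.0092 when 1 replicate was left out, the last without day 19 replicate 1. The log2 change of ENSBTAT00000030466, day 10 against day 7, ranged from -1.16, without day 7 replicate 4, to 0.032, without day 7 replicate 1. The median of the members in that comparison, 0.59, was -0.13 with all 28 libraries. No paired analysis was possible because the labels number no replicates: the numbers used here follow accession order, and different conceptuses share only a number. Depth limits the low values: a count of 0 allows up to 5.53 RPKM in the shallowest library.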
